A study of Mus musculus with 6 samples.

Results

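The genes described here encode the proteins of the mitochondrial ribosome, the particle that translates the few messages made inside mitochondria. They were taken as every gene of the deposited table with values whose symbol begins with Mrpl or Mrps followed by a digit and whose mean count over the 6 libraries was at least 10. This gave 78 genes of 17034 with values, 49 named Mrpl for the large subunit and 29 named Mrps for the small subunit. All 78 genes with such a symbol passed, and 0 lay below the limit, the lowest mean being that of Mrpl52.

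Polyadenylated RNA of the gastrocnemius, a mixed hindlimb muscle, was sequenced from male mice of 8 weeks, with 3 libraries labelled WT and 3 labelled TRa_mKO, all of batch 1. Both groups carried Thra fl/fl, floxed copies of the gene of thyroid hormone receptor alpha. TRa_mKO mice also carried a Myf5-Cre transgene, so that the recombinase is made where Myf5, a gene of early myogenic cells, is active, and WT littermates had no Cre. Cells of the muscle outside that lineage keep the receptor gene, and neither group received a drug or a special diet.

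A mitochondrial ribosome joins a small subunit, which binds the message and reads its codons, to a large subunit, which links the amino acids. Its RNA comes from the mitochondrial genome, whereas each of its proteins is made from a nuclear gene in the cytosol and imported. Many of these proteins have counterparts in bacteria, and others are found in mitochondria alone. The particle makes subunits of the respiratory chain and the ATP synthase, which is why inherited defects of its proteins often affect heart and muscle. Messages encoded in mitochondrial DNA had 0 values in the table, so the products of this ribosome are not analysed here.

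Total counts lay between 12390527 and 14488500 per library. Levels are given as CPM, the usual depth-scaled count, here also scaled by a composition factor. Defining transcripts of muscle fibres, such as Acta1, Ckm and Mylpf, summed to between 95226 and 137655 CPM, which fits the tissue label. Counts of the targeted gene Thra (gene ID 21833) were 78.8, 92.8 and 96.8 CPM in WT, against 129, 118 and 101 CPM for TRa_mKO (log2 fold change 0.37, SE 0.12, edgeR adjusted p = 0.117). Its counts are fractional, so part of them may belong to another feature. A count over all exons does not check a floxed deletion, so the directions below rest on the labels. In RNA from whole muscle, fewer cells of a type and less RNA per cell cannot be told apart.

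Mitoribosomal transcripts of the large and the small subunit stood at nearly the same level in both genotypes. Of 78 genes tested, 0 were called higher and 0 lower in TRa_mKO at a Benjamini-Hochberg adjusted p under 0.05 in edgeR's quasi-likelihood test. Over all 13118 genes tested, 4.17% were called, 2.52% higher and 1.65% lower. At an unadjusted p under 0.05 there were 2 of the 78, Mrps11 lower and Mrpl53 higher, where 17.9% of all genes had such a p, 10.2% higher and 7.72% lower. DESeq2 and limma-voom also called 0 of the 78, where they called 5.81% and 3.87% of all genes. At an adjusted p under 0.1, edgeR called 0 of the 78 and 7.12% of all genes. The median log2 fold change (TRa_mKO over WT) was -0.02 over the 78 genes, with a middle range from -0.08 to 0.06, beside a median of 0.00 over all genes, and 35 genes had a positive and 43 a negative value. The typical size of a change, without regard to sign, was 0.06 on the log2 scale against 0.14 over all genes.

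A missed threshold does not show that levels were alike, so the intervals bear on how large a change these libraries leave room for. For 76 of the 78 genes, the 95% confidence interval of the log2 fold change lay within a 1.5-fold change either way, as it did for 66.1% of all genes tested. The genes tested reach down to a WT mean of 0.05 CPM, against 16.7 CPM for the lowest of the 78. They were not matched for level, here or for the typical size of a change above. The exceptions were Mrps11, with an interval from -0.65 to -0.07, and Mrps35, with one from -0.04 to 0.61. Tested on counts simulated for the 13118 genes of this comparison, the same fit recovered 1.6% of genes changed 1.2-fold, 41.2% at 1.5-fold and 83.6% at 2-fold. The changed genes were drawn from all genes tested, whose median SE was 0.12, against 0.10 for the 78, so recovery among the 78 was not measured. Changes of the typical size measured here are smaller than the 1.2-fold that was seldom recovered.

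**Figure D1:**
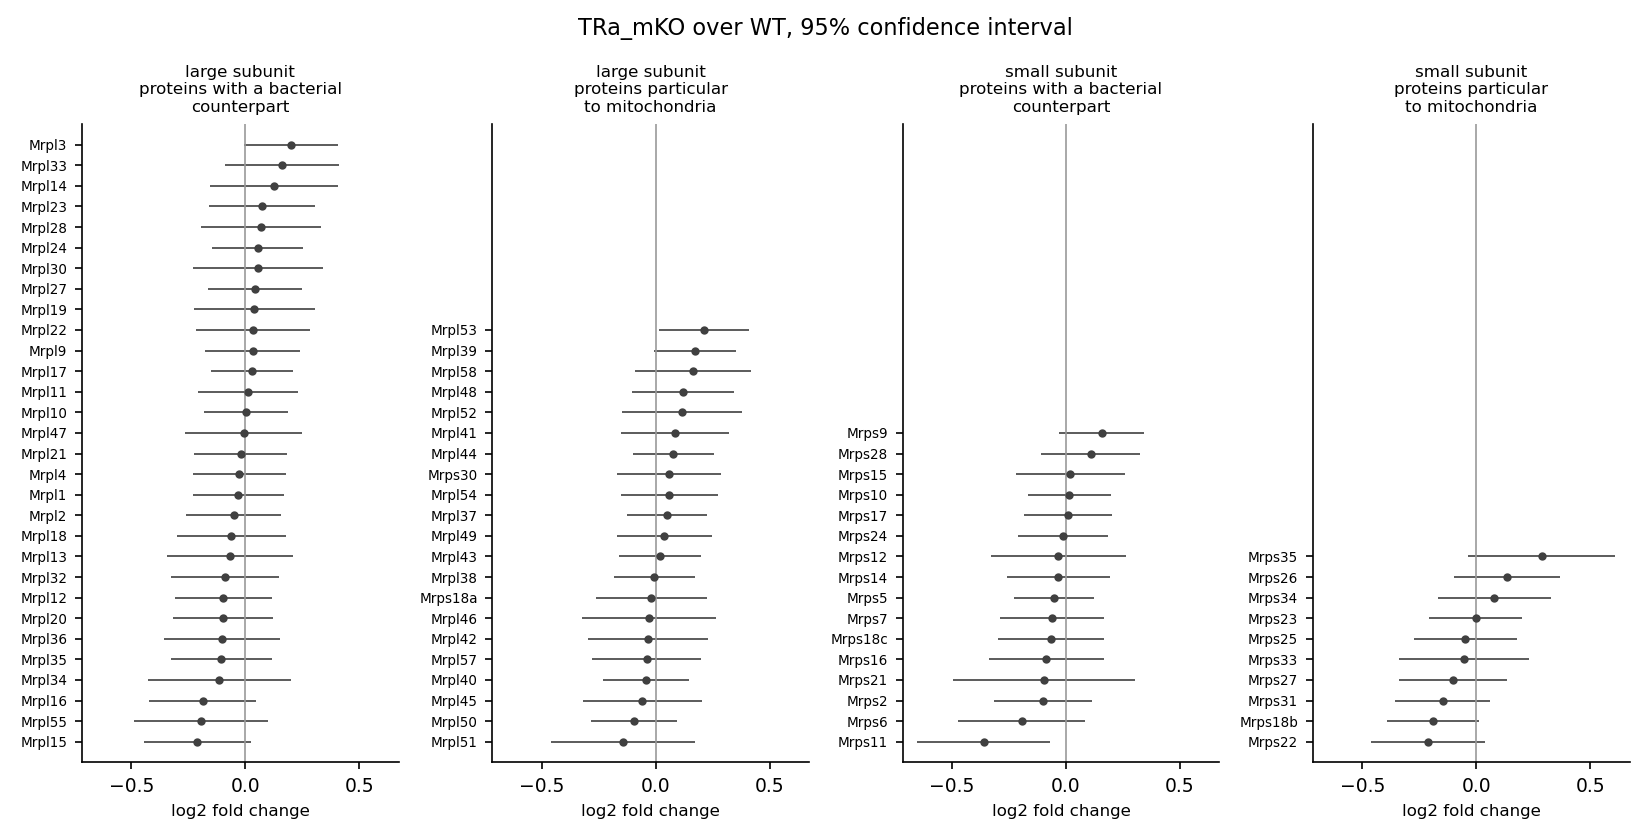
Log2 fold change of TRa_mKO over WT (horizontal axis) for 77 mitoribosomal genes in 4 classes, Mrps36 left out. Points are edgeR estimates and bars their 95% confidence intervals, and in 2 genes, Mrps11 and Mrpl53, the bar does not cross 0.

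The large subunit was represented by 51 genes, 49 named Mrpl together with Mrps30 and Mrps18a, whose products belong to the large subunit despite their names. Their median log2 fold change was 0.00, with 26 positive and 25 negative values and a range from -0.21 to 0.21. Of these, 30 encode proteins with a bacterial counterpart (median -0.01) and 21 proteins particular to mitochondria (median 0.04). The small subunit, with 26 genes, had a median of -0.05, with 8 positive and 18 negative values and a range from -0.36 to 0.29. Its 16 genes with a bacterial counterpart had a median of -0.04 and its 10 particular to mitochondria one of -0.05. By library, the median deviation from the WT mean was 0.09, 0.08 and -0.16 in WT and 0.03, -0.03 and 0.03 in TRa_mKO for the large subunit, on the log2(CPM + 0.5) scale. For the small subunit it was 0.04, 0.10 and -0.11 in WT and 0.00, -0.07 and -0.04 in TRa_mKO, so the genotypes overlapped in both.

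Among the small-subunit genes, Mrps11 (gene ID 67994), the counterpart of a bacterial protein of the ribosome's platform, had the smallest p of the 78. It measured 23.1, 25.6 and 21.4 CPM in WT, against 21.7, 15.8 and 17.0 CPM in TRa_mKO. TRa_mKO replicates 2 and 3 lay below every WT library, and replicate 1 lay among them. WT was 1.28-fold higher (log2 fold change -0.36, SE 0.13, edgeR adjusted p = 0.177). Without TRa_mKO replicate 1 the log2 fold change was -0.51 and passed (adjusted p = 0.0438), the single call among the 78 genes in any of the fits at an adjusted p under 0.05. In that fit 4.48% of all genes were called. The 78 genes had 0 calls in the other fits, which called 2.89%, 2.72% and 2.34% of all genes without WT replicate 1, 2 or 3 and 1.58% and 2.83% without TRa_mKO replicate 2 or 3. They also had 0 calls with the replicate number as a block (2.72% of all genes), with a correction for GC and length (4.42%), by library size alone (3.57%) and without the libraries richest in haemoglobin, WT replicate 1 and TRa_mKO replicate 3 (2.03%).

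Mrps11 lies head to head with Mrpl46, a large-subunit gene, and their RefSeq starts are 42 bases apart on the 2 strands. The bases between the starts are shown because both genes are transcribed outward from them, Mrps11 on the strand printed (GRCm38.p6, chr7:78783090-78783130, plus strand). All are in lower case since none of the motifs searched below lay within them. The YY1 letters, also searched below, begin 107 bases before the Mrps11 start, outside the bases printed.
Mrps11 and Mrpl46: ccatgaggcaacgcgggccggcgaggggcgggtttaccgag
Mrpl46 (gene ID 67308), named after its values were seen, measured 24.3, 24.4 and 17.8 CPM in WT, against 20.6, 20.9 and 23.4 CPM in TRa_mKO, and the groups overlapped. Its log2 fold change was -0.03 (95% confidence interval -0.32 to 0.26, edgeR adjusted p = 0.941). Whether the pair of genes differed from each other in their response was not tested.

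Several other small-subunit genes measured lower in TRa_mKO without passing. Mrps22, mutated in an inherited disorder of mitochondrial translation, was at 28.4, 27.8 and 27.3 CPM in WT, against 27.8, 23.7 and 20.7 CPM in TRa_mKO (log2 fold change -0.21, edgeR adjusted p = 0.367). TRa_mKO replicate 1 lay among the WT libraries, which were close together, and replicates 2 and 3 lay below them. Mrps6 stood at 19.7 ± 2.99 CPM in WT, against 17.2 ± 1.27 CPM in TRa_mKO (SD, n = 3, log2 fold change -0.19, edgeR adjusted p = 0.458). Of these values, that of Mrps22 was -0.33 without TRa_mKO replicate 1 and -0.11 without TRa_mKO replicate 3, and that of Mrps6 was -0.07 without WT replicate 1. Mrps31, with 36.9, 36.5 and 35.9 CPM in WT, against 35.1, 34.7 and 28.9 CPM in TRa_mKO, was the single gene of the 78 whose TRa_mKO libraries all lay below the WT libraries (edgeR adjusted p = 0.453). Over all genes tested, 10.1% had all TRa_mKO libraries below the WT libraries. Among the 78, WT replicate 3 was the lowest WT library in 70 genes, which makes such a separation harder to reach.

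On the other side, Mrps35 (gene ID 232536) had the highest log2 fold change of the 78, 0.29 (SE 0.15, edgeR adjusted p = 0.341). It measured 23.1, 20.3 and 15.6 CPM in WT, against 22.6, 22.0 and 27.1 CPM in TRa_mKO, where TRa_mKO replicate 3 was highest and WT replicate 3 lowest. Those libraries carried much of the value, which was 0.14 without WT replicate 3 and 0.19 without TRa_mKO replicate 3. Mrps9, whose bacterial counterpart reaches with its tail toward the transfer RNAs, measured 43.8, 42.1 and 38.6 CPM in WT, against 48.9, 44.9 and 44.8 CPM in TRa_mKO. Its groups did not overlap, and it did not pass (log2 fold change 0.16, edgeR adjusted p = 0.374).

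Mammals have several paralogs of a single bacterial gene, Mrps18a, Mrps18b and Mrps18c, whose products take different places in the particle. Mrps18b, a small-subunit protein, was at 50.0, 47.9 and 47.3 CPM in WT, against 47.4, 40.3 and 39.7 CPM in TRa_mKO (log2 fold change -0.19, 95% confidence interval -0.39 to 0.01, edgeR adjusted p = 0.31). Mrps18c, the small-subunit form in the bacterial position, had a log2 fold change of -0.06 (30.0 ± 3.72 against 28.6 ± 1.23 CPM, SD, n = 3). Mrps18a, the large-subunit form, had one of -0.02 (56.3 ± 8.11 against 55.5 ± 2.29 CPM, SD, n = 3). The intervals of the paralogs overlapped, and differences among them were not tested.

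In the large subunit, Mrpl53 (gene ID 68499), a protein particular to mitochondria, measured 47.8, 47.2 and 40.3 CPM in WT, against 50.8, 52.8 and 53.0 CPM in TRa_mKO. Every TRa_mKO library lay above every WT library, by 1.16-fold in the fitted mean (log2 fold change 0.21, SE 0.09, edgeR adjusted p = 0.245). Mrpl3, a protein near the catalytic centre and a gene of inherited cardiomyopathy, measured 102, 106 and 104 CPM in WT, against 132, 111 and 114 CPM in TRa_mKO. Its groups did not overlap either (log2 fold change 0.20, 95% confidence interval -0.01 to 0.41, edgeR adjusted p = 0.293). Mrpl39 measured 36.8, 38.8 and 34.9 CPM in WT, against 42.5, 42.3 and 39.6 CPM in TRa_mKO (log2 fold change 0.17, edgeR adjusted p = 0.298). Single libraries moved the first and second of these values, Mrpl53 to 0.13 without WT replicate 3 and Mrpl3 to 0.12 without TRa_mKO replicate 1. The counts of Mrpl39 are fractional in the table, which was taken as a sign of shared reads. With Mrps9, these are the 4 genes of the 78 whose TRa_mKO libraries all lay above the WT libraries. They are 5.13% of the 78, where 13.2% of all genes tested did so. The 78 genes moved together among the WT libraries, as described below, so they are not independent and the lower share was not tested.

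Of the other large-subunit genes at the ends of the range, Mrpl58, which encodes a peptidyl-tRNA hydrolase that frees stalled ribosomes, had a log2 fold change of 0.16 (34.4 ± 5.4 against 38.5 ± 1.6 CPM, SD, n = 3, edgeR adjusted p = 0.498). Mrpl33 had the same value of 0.16 (72.7 ± 10.1 against 81.3 ± 5.41 CPM, SD, n = 3, edgeR adjusted p = 0.502). Mrpl15, a core protein with a bacterial counterpart, measured 92.8, 88.8 and 77.8 CPM in WT, against 83.5, 68.5 and 72.0 CPM in TRa_mKO, with TRa_mKO replicate 1 inside the WT range (log2 fold change -0.21, edgeR adjusted p = 0.333). Mrpl55 had a log2 fold change of -0.20 (39.7 ± 7.11 against 34.6 ± 3.2 CPM, SD, n = 3, edgeR adjusted p = 0.484). Without WT replicate 3 the log2 fold change was 0.05 for Mrpl58, 0.05 for Mrpl33 and -0.33 for Mrpl55. Without WT replicate 1 it was 0.26 for Mrpl58 and -0.09 for Mrpl55.

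The stalk of the large subunit recruits translation factors. Mrpl12, its repeated protein, which is also known to bind the mitochondrial RNA polymerase, measured 87.1, 95.3 and 79.3 CPM in WT, against 85.0, 76.3 and 83.3 CPM in TRa_mKO (log2 fold change -0.10, 95% confidence interval -0.31 to 0.12). Mrpl10, which anchors the stalk, had a log2 fold change of 0.00 (43.6 ± 2.95 against 43.7 ± 1.38 CPM, SD, n = 3), and Mrpl11, at its base, one of 0.01 (54.8 ± 6.86 against 55.2 ± 0.496 CPM, SD, n = 3). Mrps12, part of the decoding centre, stood at -0.03, and Mrpl44, a gene of inherited cardiomyopathy, at 0.08 (edgeR adjusted p = 0.936 and 0.673). Mrps36, whose product is also known as a subunit of the oxoglutarate dehydrogenase complex, had a log2 fold change of 0.00 (65.3 ± 8.11 against 65.4 ± 3.58 CPM, SD, n = 3).

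Fractional counts, taken as a sign of shared reads, were found in 7 of the 78 genes: Mrpl18, Mrpl19, Mrpl24, Mrpl39, Mrpl40, Mrpl43 and Mrps25. Their values are uncertain to that extent. The 7 had a median log2 fold change of 0.02, and the other 71 one of -0.02.

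Levels of these genes differed together among the WT libraries. Summed over the 78 genes, the level was 4160, 4184 and 3497 CPM in WT replicates 1, 2 and 3, and 4031, 3809 and 3919 CPM in TRa_mKO replicates 1, 2 and 3. The means were 3947 ± 389.8 CPM in WT, against 3919 ± 111.3 CPM in TRa_mKO (SD, n = 3), so the genotypes overlapped and differed by far less than the WT libraries did among themselves. WT replicates 1 and 2 lay above every TRa_mKO library in this sum, and WT replicate 3 lay below every one. WT replicate 3 held the lowest of the WT values in 70 of the 78 genes, whereas over all genes tested it was lowest in 33.4%. It was the highest WT library in 1 gene. Among TRa_mKO libraries the lowest value was spread more evenly, over 20, 35 and 23 genes in replicates 1, 2 and 3.

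**Figure D2:**
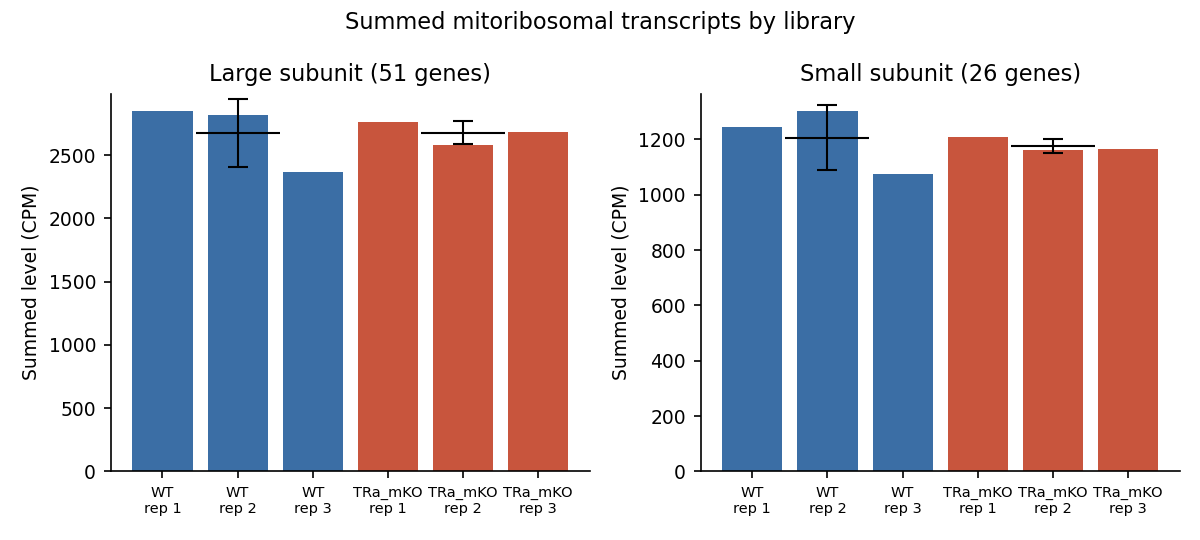
Summed CPM of the large-subunit (left) and small-subunit (right) genes in each library, WT in blue and TRa_mKO in red. Horizontal lines and bars give the mean ± SD of the 3 libraries of a genotype. WT replicate 3 is the lowest library in both panels, with 2367 and 1074 CPM.

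Both subunits took part in this. The large-subunit genes summed to 2845, 2813 and 2367 CPM in WT and to 2763, 2581 and 2685 CPM in TRa_mKO, and the small-subunit genes to 1245, 1300 and 1074 CPM and to 1207, 1160 and 1165 CPM. WT replicate 3 was below the WT mean in 48 of 51 large-subunit genes and in 26 of 26 small-subunit genes. The median deviation of the 78 genes from their WT mean was 0.08, 0.08 and -0.15 in WT replicates 1, 2 and 3 and 0.02, -0.04 and 0.00 in the TRa_mKO replicates, on the log2(CPM + 0.5) scale. The typical coefficient of variation was 10.8% in WT and 5.72% in TRa_mKO, against 9.44% and 10.0% over all genes tested.

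**Figure D3:**
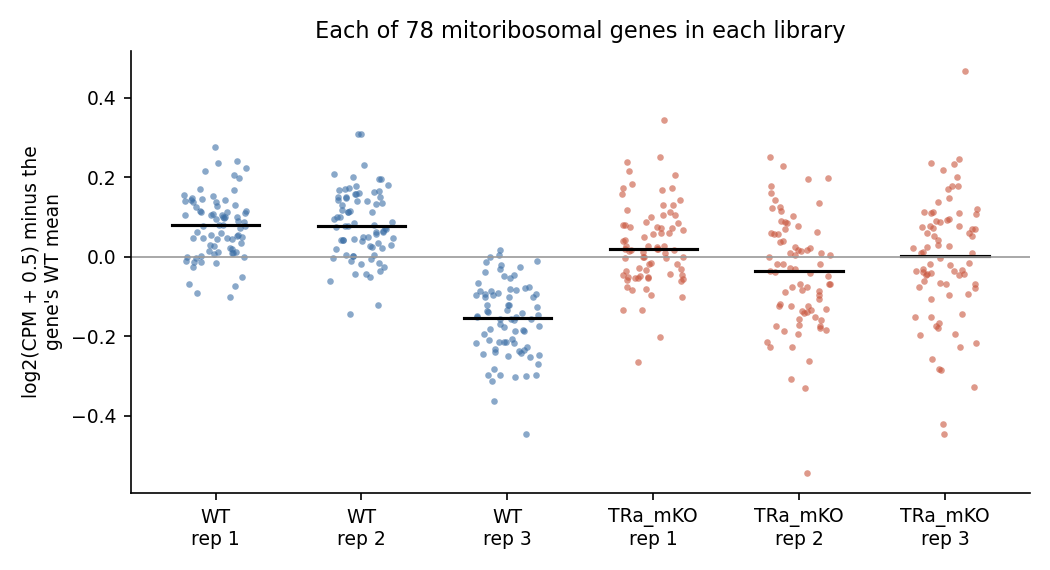
Each point is 1 of the 78 genes in 1 library, as log2(CPM + 0.5) minus the gene's mean over the WT libraries, and black lines are medians. The points of WT replicate 3 lie almost wholly below 0, with a median of -0.15, while the TRa_mKO libraries centre near 0.

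Single genes show the same library apart. Mrps21, a small-subunit protein with a bacterial counterpart, measured 118, 133 and 78.5 CPM in WT, against 100, 96.1 and 112 CPM in TRa_mKO. Mrpl42, with the highest CPM of the 78 in WT, measured 221, 214 and 170 CPM in WT, against 207, 182 and 202 CPM in TRa_mKO. In both, WT replicate 3 was the lowest of all 6 libraries. Mrps23 went another way, with 93.5, 101 and 96.1 CPM in WT, against 102, 101 and 87.5 CPM in TRa_mKO.

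The genotype comparison therefore leans on that library. Without WT replicate 3, the median log2 fold change of the 78 genes was -0.08 in place of -0.02, 63 genes were negative in place of 43, and 8 had an unadjusted p under 0.05. The median over all genes in that fit was 0.00. The shares of all genes that were negative or had such a p were not taken in that fit. With all libraries they were 50.0% and 17.9%. Still 0 of the 78 passed, the smallest adjusted p being that of Mrpl16 (log2 fold change -0.30, edgeR adjusted p = 0.114). Mrpl16 was at 48.0, 46.7 and 36.8 CPM in WT, against 37.8, 38.5 and 39.1 CPM in TRa_mKO. Without WT replicate 1 or 2 the median was 0.01 or 0.03. The summed level gave a log2 ratio of -0.01 with all libraries, of -0.09 without WT replicate 3, of 0.02 without WT replicate 1 and of 0.03 without WT replicate 2. Scaled without WT replicate 3, the sum was 4122 ± 17.7 CPM in WT replicates 1 and 2, against 3872 ± 109.9 CPM in TRa_mKO (mean ± SD).

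As a share of raw counts, with no composition factor, the 78 genes took 0.428%, 0.403% and 0.371% of the counts in WT replicates 1, 2 and 3 and 0.38%, 0.381% and 0.394% in the TRa_mKO replicates. The 95% Wilson intervals of WT replicate 3 (0.368% to 0.374%) and of the next lowest library, TRa_mKO replicate 1 (0.377% to 0.383%), cover counting error only and did not overlap. Scaled by library size alone, 57 of the 78 genes were negative, while the median over all genes moved to -0.05. With GC content and transcript length corrected by loess, WT replicate 3 was again lowest, at 3623 CPM against 3812 to 4161 CPM in the other libraries, but its median deviation shrank from -0.15 to -0.10. Summed muscle fibre markers, too, were lowest there, at 95226 CPM against 102578 and 129421 CPM in the other WT libraries, with 0 of 7 called. Acta1, Mylpf, Tnnt3 and Myh4 were lowest of WT in that library, and Ckm, Pvalb and Myh1 were not. Summed fibroblast markers were highest of WT there, at 1561 CPM against 1126 and 1313 CPM, with 0 of 5 called. Pdgfra, Dcn and Col1a1 were highest of WT in that library, and Col3a1 and Lum were not. Erythroid markers were also lowest there, at 458 CPM against 590 and 1763 CPM, with 0 of 5 called. So was the sum of endothelial markers, at 831 CPM against 933 and 1035 CPM, with 0 of 5 called. Cdh5, Kdr, Tek and Emcn were lowest of WT there, and Pecam1 was not. Smooth muscle and pericyte markers summed to 1490 CPM there, against 1532 and 1600 CPM, with 0 of 5 called. Most of that sum was Rgs5, at 1232, 1240 and 1225 CPM in WT replicates 1, 2 and 3. Acta2 and Myh11 were also lowest of WT in replicate 3, and Cspg4 and Tagln were not. The part of these cell types in the lower mitoribosomal level was not tested.

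Levels of different genes were compared as TPM, a depth-scaled level per transcript length, from the longest GENCODE transcript of each gene. The median over the 78 genes was 56.9 TPM in WT and 54.6 TPM in TRa_mKO, and 50 genes lay within 2-fold of the WT median. Although each subunit holds its proteins in fixed proportion, the messages ranged from 9.78 TPM for Mrps35 to 512 TPM for Mrps21 in WT. Of 77 neighbouring pairs in this order, 71 had overlapping WT libraries and do not differ beyond their spread.

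At the top, Mrps21 (512 ± 95.6 TPM in WT, SD, n = 3, and 459 ± 39.6 TPM in TRa_mKO) stood clear of the next gene. Mrps36 followed at 214 ± 15.8 TPM in WT, then Mrpl14, a core large-subunit protein, at 195 ± 33.8 TPM and Mrpl18 at 190 ± 13.4 TPM, and these 3 overlapped. Mrps23 came next at 159 ± 10.4 TPM. The first 4 genes held the same order in TRa_mKO. At the bottom were Mrps26 (12.9 ± 1.48 TPM), Mrpl19 (10.1 ± 1.53 TPM) and Mrps35 (9.78 ± 1.56 TPM), in overlapping order. The longest annotated transcripts of these 3 run from 4278 to 5000 bases, so their TPM would be higher if muscle uses shorter forms.

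**Figure D4:**
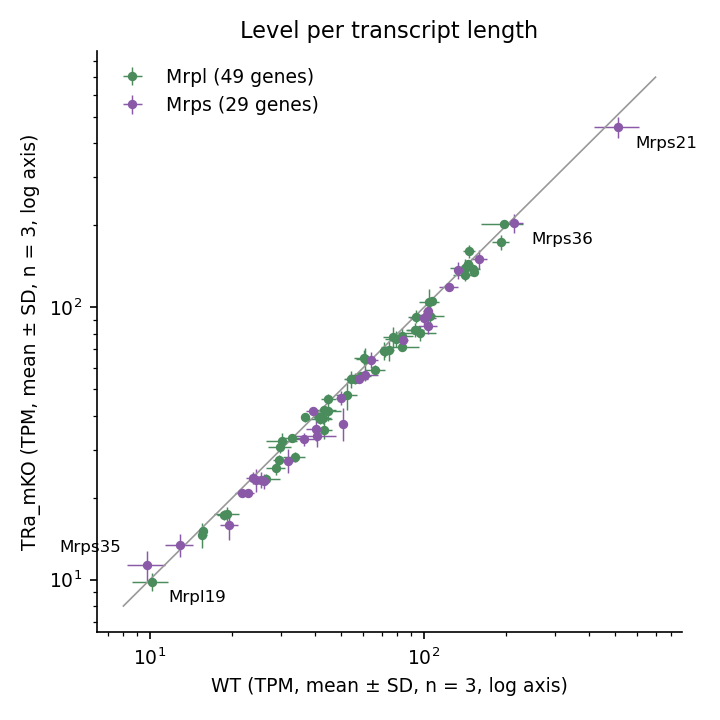
Level per transcript length in WT (horizontal) and TRa_mKO (vertical), mean ± SD of 3 libraries on log axes, for 49 Mrpl (green) and 29 Mrps (purple) genes. The grey line marks equal levels, and the genes follow it from Mrps35 at 9.78 TPM to Mrps21 at 512 TPM in WT.

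RefSeq promoter windows (GRCm38.p6, 250 bases before to 50 after a start) were found for 69 of the 78 genes, in 75 windows. Letters of the ETS family motif, CCGGAAG on either strand, were in 34.7% of these windows, against 16.3% of the windows of genes tested and 8.86% of all windows. Letters of the YY1 motif, AAGATGGC on either strand, were in 16% of the windows of the 78 genes, 4.15% of those of genes tested and 2.75% of all. The palindrome bound by NRF1, printed in capitals for Mrpl39 in the next paragraph and searched on both strands, was in 4% of the windows of these genes, 1.91% of those of genes tested and 0.971% of all. The direct repeat known as a thyroid hormone response element, searched on both strands as a pair of AGGTCA with NNNN between, was in 0 windows of the 78 genes and of the genes tested and in 5 of all 32851. So rare an exact match cannot tell the 78 genes from others, and looser forms of the repeat were not searched. The unit AGGTCA alone, which the repeat contains, was in 14.7% of the windows of these genes, 12.6% of those of genes tested and 16.3% of all.

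Stretches of 3 promoters are shown, those of large-subunit genes whose TRa_mKO libraries all lay above WT, with the matched letters in capitals and all bases upstream of the start. The positions are on the plus strand at chr6:83109029-83109075 for Mrpl53 and chr9:105053229-105053267 for Mrpl3, and on the minus strand at chr16:84735340-84735389 for Mrpl39. The first and second hold the ETS letters and the last the NRF1 letters.
Mrpl53: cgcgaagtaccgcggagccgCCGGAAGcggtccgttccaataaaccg
Mrpl3: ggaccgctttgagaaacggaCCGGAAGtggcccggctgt
Mrpl39: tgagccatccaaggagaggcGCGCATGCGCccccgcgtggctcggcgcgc
Mrps9, the small-subunit gene whose TRa_mKO libraries also all lay above WT, held none of the motifs searched in its promoter window. The median log2 fold change was -0.02 over the 26 genes with the ETS letters and -0.03 over the 43 without. Such a match is a description of the letters and shows no binding.

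Many of these genes start back to back with another gene. Of the 69 with a promoter window, 26 (37.7%) had another gene's start within 1000 bases upstream on the other strand, against 18.5% of the genes tested. Of the 26 neighbours, 22 were tested and 0 called by edgeR, 3 of them at an unadjusted p under 0.05 besides Mrps11. These 4 of 22 are near the 17.9% of all genes with such a p, so the neighbours did not stand apart. Hira, a histone chaperone gene beside Mrpl40, had a log2 fold change of -0.34 (18.8 against 14.9 CPM, edgeR adjusted p = 0.15). Klc4, a kinesin light chain beside Mrpl2, had one of 0.21 (adjusted p = 0.264), and Sars2, beside Mrps12, one of 0.28 (adjusted p = 0.221). These neighbours were named after their values were seen. Mrpl43 lies beside Twnk, the mitochondrial DNA helicase (log2 fold change 0.07), and Mrpl47 beside Ndufb5, a subunit of respiratory complex I (-0.13, adjusted p = 0.632).

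Other genes that serve mitochondrial translation were read from the same fit, in lists chosen by function. The 5 proteins of the mitochondrial ribosome with other names, Dap3, Ptcd3, Chchd1, Aurkaip1 and Gadd45gip1, had log2 fold changes from -0.06 to 0.10, with 0 called higher and 0 lower and 0 at an unadjusted p under 0.05. In all 5, WT replicate 3 was again the lowest WT library: Ptcd3, which binds messages on the small subunit, measured 85.8, 85.4 and 70.4 CPM in WT, against 93.2, 84.6 and 80.7 CPM in TRa_mKO. Chchd1 measured 83.5, 75.4 and 65.5 CPM in WT, against 74.5, 72.1 and 69.4 CPM in TRa_mKO. Of 13 translation factors, 7 were lowest in that library among WT, and of 20 aminoacyl-tRNA synthetases 9 were.

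Aminoacyl-tRNA synthetases, which charge the transfer RNAs, had 1 of 20 genes called higher and 0 lower, with a median log2 fold change of 0.05. That 1 call is 5% of the list, where 4.17% of all genes were called in either direction and 2.52% were called higher. The 4 genes at an unadjusted p under 0.05, all higher, are 20% of the list. Of all genes, 17.9% had such a p in either direction, and 10.2% had such a p and were higher. Both shares of the list were near those for either direction and above those for higher genes. Whether the list differed from all genes was not tested. Lars2, the leucyl-tRNA synthetase of mitochondria (gene ID 102436), rose 1.41-fold, from 21.8, 20.5 and 20.2 CPM in WT to 32.1, 29.1 and 27.1 CPM in TRa_mKO (log2 fold change 0.50, SE 0.10, edgeR adjusted p = 0.0187). All TRa_mKO libraries were above all WT libraries. The call ended without WT replicate 2 or 3 or TRa_mKO replicate 2 (adjusted p = 0.0608, 0.0647 and 0.0784), with log2 fold changes of 0.48 to 0.50. Gatb, part of the enzyme that makes glutaminyl-tRNA, measured 24.8, 30.2 and 29.2 CPM in WT, against 37.0, 37.5 and 34.9 CPM in TRa_mKO (log2 fold change 0.38, edgeR adjusted p = 0.0582). Fars2, the phenylalanyl form, had a log2 fold change of 0.37 (adjusted p = 0.118), also with all TRa_mKO libraries above WT.

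Among 27 genes of mitoribosome assembly and ribosomal RNA maturation, 0 were called and 3 had an unadjusted p under 0.05, all 3 higher. They are 11.1% of the list, near the 10.2% of all genes that were higher at such a p. Tfb1m, which methylates the small ribosomal RNA, measured 11.2, 8.29 and 8.38 CPM in WT, against 13.5, 13.6 and 12.7 CPM in TRa_mKO (log2 fold change 0.51, SE 0.14, edgeR adjusted p = 0.0792), with shared reads. Mettl15, another methyltransferase of that RNA, had a log2 fold change of 0.38 (edgeR adjusted p = 0.207), and Mterf3 one of 0.21 (adjusted p = 0.26).

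The 13 translation factors tested had 0 calls and 1 unadjusted p under 0.05, that of the release factor gene Mtrf1, which was lower in TRa_mKO (18.5, 17.2 and 18.9 CPM against 13.8, 15.9 and 16.5 CPM, log2 fold change -0.24, edgeR adjusted p = 0.273). That 1 gene is 7.69% of the list, near the 7.72% of all genes that were lower at such a p. Gfm1, the elongation factor that moves the ribosome along, had a log2 fold change of -0.22 (96.4 ± 5.31 against 82.8 ± 9.72 CPM, SD, n = 3, edgeR adjusted p = 0.298), and Mrrf, the recycling factor, one of 0.17 (adjusted p = 0.539).

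Of 19 genes of mitochondrial transcription and RNA handling, 1 was called higher and 0 lower, with a median of -0.05 and 15 negative values, and 3 had an unadjusted p under 0.05 and were lower. Over all genes tested, 4.17% were called, 7.72% had such a p and were lower, and 50.0% were negative. Hsd17b10, a subunit of the mitochondrial ribonuclease P and also an enzyme of isoleucine breakdown, rose 1.36-fold, from 56.1, 56.0 and 51.4 CPM in WT to 68.0, 77.9 and 76.5 CPM in TRa_mKO (log2 fold change 0.44, SE 0.09, edgeR adjusted p = 0.0219). That edgeR call ended with WT replicate 1, 2 or 3 or TRa_mKO replicate 2 or 3 left out (adjusted p = 0.0582 to 0.112), with the replicate number as a block (0.0692), by library size alone (0.0594) and without the libraries richest in haemoglobin (0.116). The log2 fold change stayed between 0.40 and 0.46 in all of these fits. Polrmt, the mitochondrial RNA polymerase, measured 27.2, 27.8 and 27.9 CPM in WT, against 22.6, 23.7 and 22.4 CPM in TRa_mKO. The groups did not overlap, and it did not pass (log2 fold change -0.27, SE 0.08, edgeR adjusted p = 0.11). Trmt10c, another subunit of ribonuclease P, had the same log2 fold change of -0.27 (adjusted p = 0.207).

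**Figure D5:**
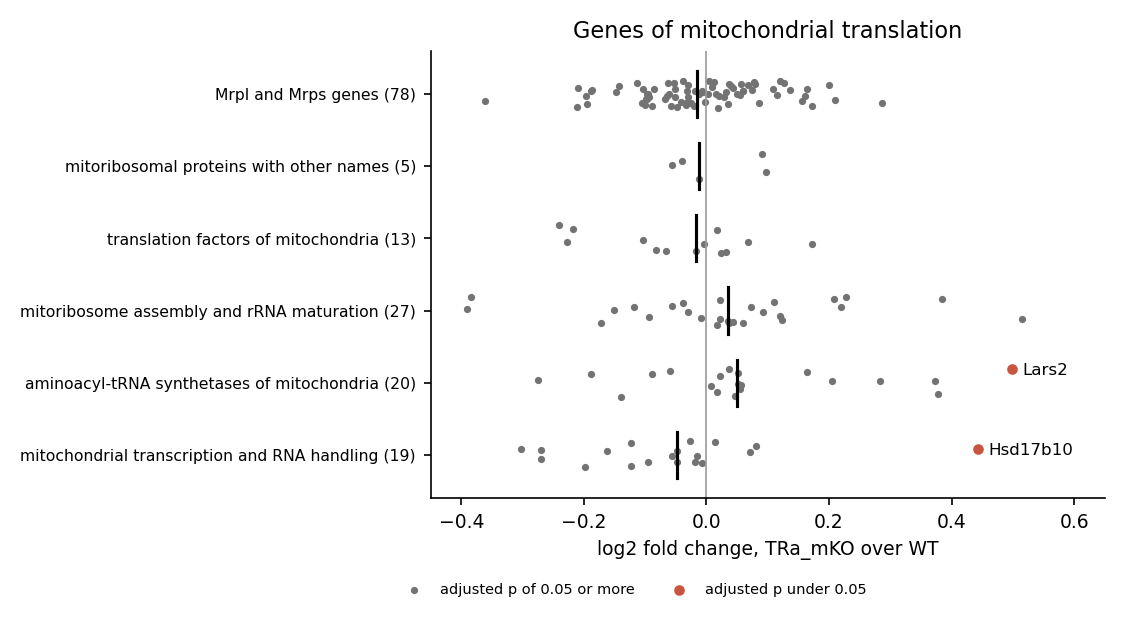
Log2 fold change of TRa_mKO over WT for the 78 Mrpl and Mrps genes and for 5 lists of mitochondrial translation genes, with the number tested in brackets. Points are genes, black bars are medians, and the 2 genes with an adjusted p under 0.05, Lars2 and Hsd17b10, are in red.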

How the data were processed

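RNA of 6 libraries was analysed, 3 per genotype. The authors deposited estimated counts for each gene, in columns that the file headers call read counts, and between 9.65% and 10.0% of a library's values were not whole. Among tools, featureCounts, Trimmomatic 0.39, MultiQC 1.12 and FastQC 0.11.9 appear in the submitters' processing notes, and among builds GRCm39, GRCm38.p6 and mm10. Which aligner, gene annotation or strand option was used is not given in the sources used here, and the kit marks strand, per the labels' protocols. A gene with fractional counts was taken to share reads with another feature, and values were rounded before testing. Of 17034 genes with values, 13118 passed filterByExpr (minimum count 10). They were scaled by TMM and compared by the robust quasi-likelihood test of edgeR 4.0.16 in R 4.3.3, two-sided, adjusted over all genes, with genotype as the sole term. Alternatives used DESeq2 1.42.0, limma 3.58.1 (voom), other scalings and filters, GC and length correction, a replicate block and left-out libraries. The fit was tested on simulated data, where 9.82% of its calls were false. TPM used the longest GENCODE M21 transcript, and promoters came from RefSeq. Python 3.11.15 drew the figures.

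The 78 genes, the lists and the libraries richest in haemoglobin were chosen with earlier results of these data known. Named were the 6 highest and 6 lowest fold changes, called genes, genes with separate groups and an unadjusted p under 0.05, the 5 highest and 3 lowest TPM, genes of fixed role, and for other lists called genes and up to 3 with the smallest p. Mrps9, Mrps31, Mrpl16 and Mrpl42 were named after their values were seen. Replicates of a genotype all differed by more than sampling noise. The labels do not state outright that each library is a separate animal, and p-values measure the spread between these samples.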

Additional observations from a re-analysis of the deposited data

How the results depend on the processing

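The count of the 78 genes called higher was 0 in each of 19 alternatives, and that of genes called lower was 0 in 18. Leaving out 1 library in turn gave 0 to 1 lower, the call being Mrps11 without TRa_mKO replicate 1. The median log2 fold change ranged from -0.08 to 0.03 over 20 alternatives (with 1 library left out over the same range). The summed level's log2 ratio ranged from -0.09 to 0.03 over 16, so neither has a settled sign. All these values stayed within the spread between libraries. WT replicate 3 itself widened that spread, so leaving it out could hardly exceed it, and this check says little about that library. Of the other lists, 2 genes were called higher, and 0 lower in all alternatives. The higher count was 1 by library size only, 1 with the replicate number as a block, 1 without the libraries richest in haemoglobin and 4 at an adjusted p below 0.1, and 0 to 2 with 1 library left out. The 12 genes at the ends of the fold change range kept their direction in all alternatives run, but not their size. Without the libraries richest in haemoglobin the log2 fold change was -0.10 for Mrps22, -0.13 for Mrpl15, -0.07 for Mrpl55, -0.13 for Mrps6 and -0.12 for Mrps18b. Same-numbered libraries of the genotypes did not deviate together (correlations -0.18, 0.01 and -0.03). These values show no pairing by number, though 3 libraries a genotype are too few to exclude it. The block gave 0 calls among the 78 genes and 357 in place of 547 over all genes. A minimum mean count of 100 removed 0 of the 78 genes. In the simulation over all genes tested, changes of 1.5-fold or less were mostly not recovered, and the 78 genes were not simulated apart.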
